A study of Mus musculus with 19 samples.

Results

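The genes described here are 42 endothelial and angiogenesis genes, chosen by name out of the 26796 genes in the deposited table and matched through their Ensembl identifiers. They comprise 15 junction and surface genes of endothelial cells, 6 transcription factors, 8 receptors, 2 tip cell genes, 7 secreted angiogenic factors and 4 leucocyte adhesion molecules. RNA was measured by sequencing in 19 whole breast tumours of the Met1 mouse mammary cancer line. The mice had received vesicles released by neutrophils, small membrane-bound particles that carry protein and RNA between cells. In 9 tumours the neutrophils had been treated with the vehicle DMSO, and in 10 tumours with 27-hydroxycholesterol (27HC), a cholesterol metabolite. All mice therefore carried Met1 tumours and received neutrophil vesicles, and no tumour without vesicles was analysed here. The mice's strain and age, and the vesicles' dose and timing, were not stated in the labels used. Each title carries a pair of numbers, the first of which is 1 (5 DMSO and 5 27HC tumours) or 2 (4 DMSO and 5 27HC tumours) and has no stated meaning. The labels do not say that each tumour came from a separate mouse, so the p-values measure the spread between these tumours. No model held the vesicle preparation, so the p-values do not measure a spread between preparations.

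Blood vessels are lined by endothelial cells, which hold together through VE-cadherin (Cdh5) and PECAM-1 (Pecam1). New vessels sprout when VEGF ligands, secreted mainly by tumour and stromal cells, bind VEGF receptors on endothelial cells. The angiopoietins act on the receptor TIE2 (Tek), which works together with its sister receptor TIE1 (Tie1), and steady or loosen the vessel wall. In a whole tumour the endothelial genes follow how much endothelium the piece holds as well as what those cells express, and fewer endothelial cells cannot be told apart from less RNA per cell.

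Totals ranged from 28139419 to 41179056 expected counts per tumour and, among the members that passed the filter, the lowest count in any tumour was 2 for Sele. The libraries differed in base composition. In 5 of them (27HC 1_3, 27HC 2_3, 27HC 1_5, DMSO 1_5 and DMSO 2_3) the GC content of the transcripts, weighted by their counts, was 49.4 to 49.7%, against 50.9 to 52.7% in the other 14. These 5, called the low-GC libraries below, were found after the data were examined, and results that rest on them are given with and without them. All 10 genes fixed as endothelium markers are among the 42 genes and were detected in every tumour. The epithelial tumour markers (5 of 5 found) summed to 44.7 to 142 CPM, the counts scaled to library size, with Epcam at 3.50 ± 3.84 CPM (SD, n = 9) in DMSO and 2.36 ± 2.05 CPM (SD, n = 10) in 27HC tumours, while the fibroblast markers summed to 1569 to 3730 CPM. Of the 42 genes, 41 passed the filter on low counts. The exception was Prox1, the master regulator of lymphatic endothelium, with 0 to 149 counts per tumour and its highest values in 27HC 1_3 (149), 27HC 2_3 (93) and DMSO 1_5 (54).

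Because several results below follow the base composition of the transcripts, the first 150 coding bases of 4 members are printed here, with the start codon in capitals (GENCODE M21, GRCm38, 5′ to 3′ on the strand of the gene). Tie1 and Tek are the sister receptors, and Vegfb and Angpt1 are the secreted factors with the highest and the lowest GC content. Tie1 lies on chromosome 4 (118471191 to 118490061, minus strand), and its longest coding transcript, used for its GC content throughout, has 57.6% GC, while the bases printed come from the transcript with the longest coding sequence, which has 58.2% GC. Tek lies on the same chromosome (94739289 to 94874976, plus strand) with 47.1% GC. Vegfb lies on chromosome 19 (6982473 to 6987651, minus strand) with 62.6% GC, and Angpt1 on chromosome 15 (42424723 to 42676977, minus strand) with 39.3% GC.
Tie1: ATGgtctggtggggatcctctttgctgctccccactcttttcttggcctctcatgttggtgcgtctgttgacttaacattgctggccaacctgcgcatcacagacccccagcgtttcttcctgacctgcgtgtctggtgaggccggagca
Tek: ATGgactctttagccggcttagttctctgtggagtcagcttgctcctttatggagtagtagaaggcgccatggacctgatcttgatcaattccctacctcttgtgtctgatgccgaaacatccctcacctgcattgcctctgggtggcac
Vegfb: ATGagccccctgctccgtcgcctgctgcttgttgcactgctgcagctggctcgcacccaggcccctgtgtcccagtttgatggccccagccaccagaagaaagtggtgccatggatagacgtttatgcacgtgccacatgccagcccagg
Angpt1: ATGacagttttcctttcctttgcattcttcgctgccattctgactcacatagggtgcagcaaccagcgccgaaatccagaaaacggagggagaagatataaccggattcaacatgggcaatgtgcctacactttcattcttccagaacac
Over these bases the GC content was 56.7% in Tie1, 51.3% in Tek, 62.0% in Vegfb and 46.7% in Angpt1.

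Among the secreted factors, Vegfa was the most abundant per transcript length. Levels between genes are compared in CPM per kb of the longest coding transcript, as the mean over 19 tumours. Vegfa, the main driver of sprouting, stood at 56.8 CPM per kb, the highest of the 42 genes. Vegfb, a VEGFR1 ligand linked to vessel survival, stood at 33.0, Apln, the ligand of the apelin receptor, at 29.1 and Pgf, another VEGFR1 ligand, at 23.0. Vegfc, which acts through VEGFR3 on lymphatic vessels, was lower at 4.05, and the angiopoietins stood at 2.42 for Angpt2 and 0.814 for Angpt1.

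Of the receptors, the neuropilin Nrp2 (35.8 CPM per kb) and VEGFR1 (Flt1, 31.3) were the most abundant, and VEGFR2 (Kdr), which carries most of the VEGF signal in endothelium, stood at 2.50. Nrp1 stood at 10.6, the apelin receptor Aplnr at 4.54, Tie1 at 3.63, VEGFR3 (Flt4) at 1.15 and Tek at 0.559. Within the junction and surface genes, Plvap, which forms the diaphragms of fenestrae, stood at 34.8 and the TGF-beta coreceptor Eng at 22.6, ahead of Cdh5 (14.8) and Pecam1 (14.6). Egfl7 and Ramp2 stood at 13.0 and 10.3, and S1pr1, Esam, Cldn5, Vwf, Mmrn2, Emcn, Nos3, Robo4 and Ptprb between 0.878 for Ptprb, the phosphatase that acts on TIE2, and 8.55 for S1pr1. Sox18 was the most abundant of the transcription factors at 9.09, followed by the ETS factor Fli1 at 3.24, Erg at 1.10, Sox7 at 0.697, Sox17 at 0.489 and Prox1 at 0.0624. The tip cell genes Dll4 and Esm1 stood at 3.10 and 0.619. Of the adhesion molecules that catch leucocytes, Vcam1 stood at 23.7, Icam1 at 15.1, Selp at 1.66 and Sele at 0.291.

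**Figure D1:**
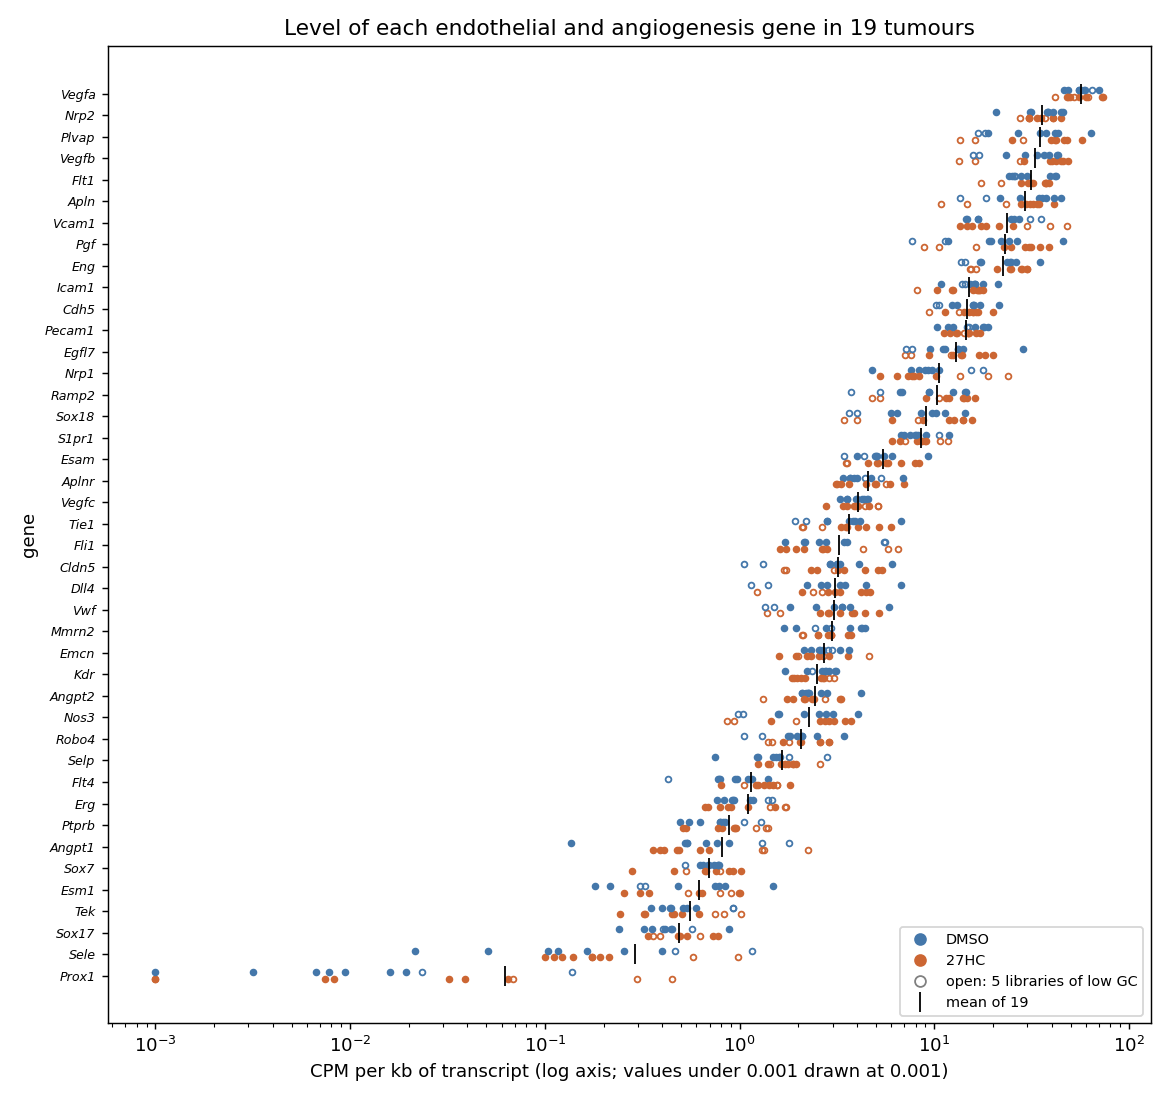
Level of each of the 42 genes in CPM per kb of transcript (log axis), 1 point per tumour, DMSO in blue, 27HC in orange, open points for the 5 low-GC libraries and a bar at the mean of 19. Vegfa is highest at a mean of 56.8 and Prox1 lowest at 0.0624, and the 2 colours overlap for every gene.

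The genes differed in how much they varied between tumours. Vegfa ranged from 143 to 254 CPM, a 1.77-fold span, and Vegfc, Pecam1, Kdr and S1pr1 also spanned less than 2-fold. Angpt1 ranged from 0.578 to 9.56 CPM, a 16.5-fold span, and Sele, the E-selectin gene, from 0.0630 to 3.36 CPM. Dll4, Pgf and Cldn5 spanned 5.86-fold, 5.94-fold and 5.75-fold. Among the 41 members tested, the narrow spans thus included the VEGFR2 gene and its main ligand, and the 3 widest were those of Sele (53.4-fold), Angpt1 and Esm1 (8.24-fold).

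Between 27HC and DMSO tumours none of the endothelial and angiogenesis genes passed the threshold. In edgeR's quasi-likelihood test 0 of 41 members and 0 of all 15629 genes (0%) had an adjusted p below 0.05, and limma-voom also called 0 genes, while DESeq2 called 2 genes, neither of them a member. At an unadjusted p under 0.05 stood 1 member (2.44%) and 354 genes (2.27%). The median log2 fold change (27HC over DMSO) of the members was 0.06, with 27 above 0 and 14 below, against 0.01 over all genes tested. In the 14 tumours left without the 5 low-GC libraries 20 members were above 0 and 21 below, with a median of -0.02. With all 19 tumours the fold changes had a Spearman coefficient with transcript GC of 0.42 across the 41 members and 0.19 across 15406 genes. Leaving out the 5 libraries did not lower it, at 0.74 and 0.49, and with library GC as a covariate it was 0.56 and 0.26. Genes are not independent replicates here. The 95% interval was narrower than a 2-fold change up or down for 40 of the 41 members, Sele being the exception, and narrower than 1.5-fold for 21, against 86.3% and 53.2% of all genes. Markers of skeletal muscle summed to 5.32 to 1396 CPM in DMSO and 4.26 to 3700 CPM in 27HC tumours (8 of 8 found and 8 above 0, none called), and their part in the members' values was not tested.

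The endothelial core did not differ detectably. Cdh5 was at 40.5 to 86.0 CPM (median 62.8) in DMSO tumours and at 37.4 to 79.7 (median 61.6) in 27HC tumours. The groups overlapped over nearly their whole range, and the log2 fold change was 0.01 (95% interval -0.31 to 0.32). Pecam1 was at 35.3 to 65.0 CPM (median 52.0) in DMSO and at 38.6 to 59.1 (median 49.8) in 27HC tumours, with a log2 fold change of -0.08 (-0.33 to 0.17). Of the 15 junction and surface genes 12 were above 0 and 3 below, with a median of 0.09, and the values furthest from 0 were 0.29 for Ramp2, which modifies the receptor for adrenomedullin, and -0.15 for the matrix protein gene Mmrn2. Of the 5 transcription factors tested 4 were above 0 and 1 below (median 0.11), from -0.03 for Fli1 to 0.26 for Sox18. Dll4, the Notch ligand of tip cells, stood at -0.01 and Esm1, secreted by tip cells, at 0.11. The adhesion molecules stood at 0.17 for Selp, 0.09 for Vcam1, -0.12 for Sele and -0.12 for Icam1.

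The one member with a small unadjusted p was Flt4, which encodes VEGFR3, a receptor of lymphatic endothelium and of sprouting vessels. Flt4 was at 2.69 to 8.71 CPM (median 5.92) in DMSO tumours and at 4.99 to 11.4 (median 8.62) in 27HC tumours. The ranges overlapped, although 9 of the 10 27HC tumours exceeded the median of the DMSO group. The log2 fold change was 0.54 (SE 0.19), with an unadjusted p of 0.00869 and an adjusted p of 0.9998, so that Flt4 did not pass the correction over all genes. Leaving out 1 tumour at a time gave 0.45 to 0.63, and without the 5 low-GC libraries it was 0.39. The lymphatic endothelium markers (6 of 6 found, 4 tested, none at 0 throughout) summed to 6.49 to 27.8 CPM (median 10.2) in DMSO and to 6.89 to 79.0 CPM (median 16.0) in 27HC tumours, and their part in the Flt4 value was not tested. Vegfc, the main ligand of this receptor, stood at 8.01 to 11.1 CPM (median 9.81) in DMSO and at 6.83 to 12.5 (median 9.79) in 27HC tumours.

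The secreted factors did not separate the groups either. Vegfa was at 160 to 243 CPM (median 194) in DMSO tumours and at 143 to 254 (median 185) in 27HC tumours. The 27HC tumours covered the DMSO range and extended past it at both ends, and the log2 fold change was -0.02 (95% interval -0.27 to 0.23). Apln stood at -0.13 (-0.63 to 0.37) and Angpt2, the TIE2 ligand that loosens vessels, at -0.11 (-0.48 to 0.25). Vegfc stood at 0.03, Angpt1 at 0.07, Vegfb at 0.16 and Pgf at 0.25 (-0.38 to 0.89). The other receptors lay between -0.13 for Kdr and 0.09 for Nrp1, with Flt1 at 0.00, Nrp2 at -0.05, Tek at -0.05, Tie1 at 0.06 and Aplnr at 0.06.

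**Figure D2:**
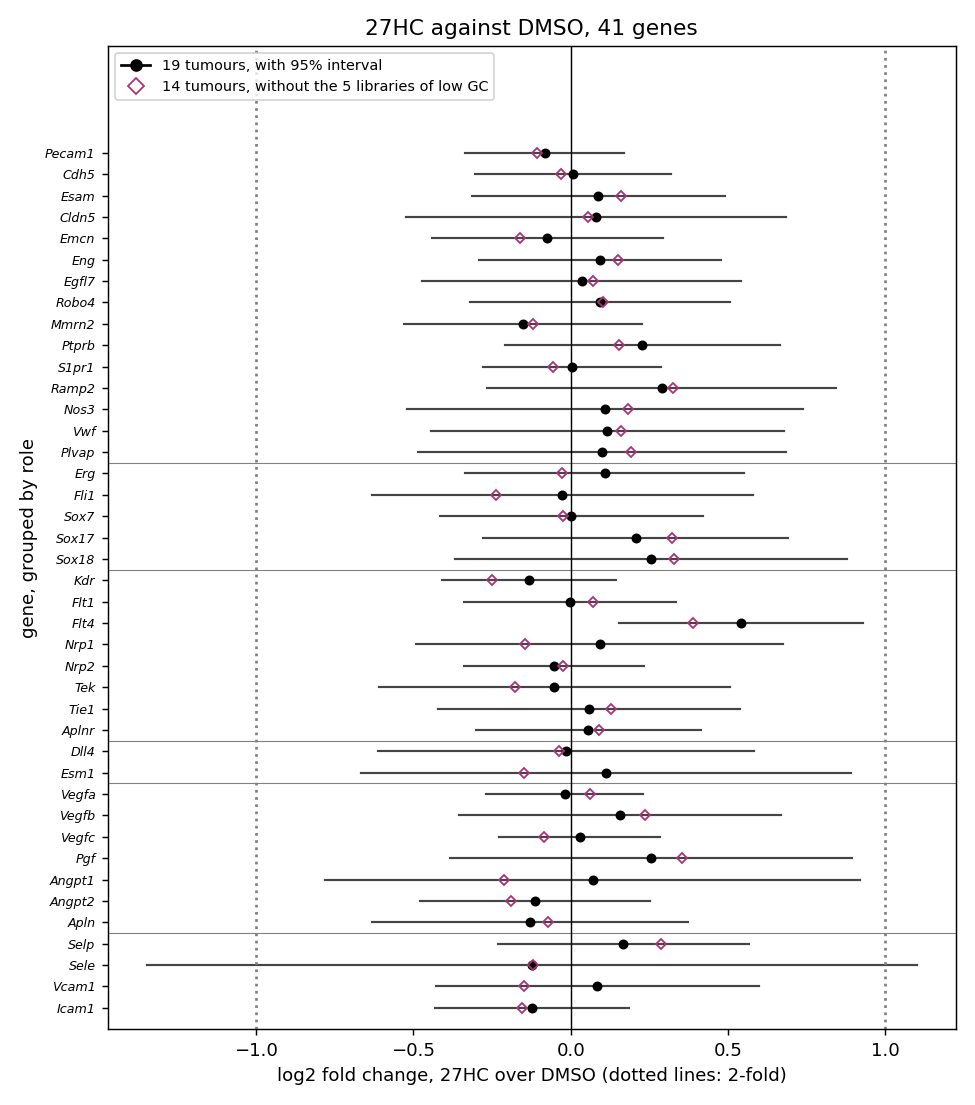
Log2 fold change of 27HC over DMSO for 41 genes grouped by role, as points with 95% intervals from all 19 tumours and as diamonds without the 5 low-GC libraries. The interval of Flt4 (0.15 to 0.93) is the only one that leaves out 0, and that of Sele alone passes the 2-fold lines.

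The pathway lists around these genes gave 0 calls as well. Of 17 other endothelial genes tested, 9 were above 0 and 8 below (median 0.03), of 13 Notch and sprouting genes 10 and 3 (median 0.12), and of 8 genes of BMP signalling in endothelium 6 and 2 (median 0.04). Of 12 other angiogenic growth factors 7 were above 0 and 5 below (median 0.04), and of 7 angiogenesis inhibitors 4 and 3 (median 0.08). Of 11 hypoxia response genes, targets of the transcription factor HIF, which also induces Vegfa, 0 were above 0 and 11 below (median -0.10). Among the 14 other tumours that count was 4 above and 7 below (median -0.02). The smallest p in the hypoxia list belonged to Pdk1, a brake on pyruvate oxidation, at 50.1 ± 6.21 CPM (SD, n = 9) in DMSO and 38.7 ± 6.27 CPM (SD, n = 10) in 27HC tumours, with a log2 fold change of -0.37 and an adjusted p of 0.9998 in edgeR's test.

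The first title number did not separate the members. Between tumours with number 2 and number 1, with treatment in the model, edgeR called 0 of 41 members and 0% of all genes, and limma-voom also 0 genes, while DESeq2 called 41 genes, all lower and none a member. At an unadjusted p under 0.05 stood 1 member, Nrp2 (log2 difference 0.27, SE 0.13, adjusted p 0.99992), and 2.46% of all genes. The members' median was 0.02, with 25 above 0 and 16 below. All 4 adhesion genes were above 0, from 0.01 to 0.58 for Sele, and Angpt1 had the lowest value at -0.32.

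The effect of 27HC did not differ detectably between the first title numbers. The test of that difference called 0 of 41 members and 0% of all genes in edgeR, and 0 genes in DESeq2 and limma-voom, with 1 member (Eng) and 1.43% of all genes at an unadjusted p under 0.05. Eng was at 85.3 ± 24.9 CPM (SD, n = 5) in DMSO and 72.2 ± 18.6 (n = 5) in 27HC tumours of number 1. In number 2 it was at 61.6 ± 14.3 (n = 4) and 87.3 ± 20.6 (n = 5). The difference of the log2 fold changes was 0.74 (95% interval 0.01 to 1.48, adjusted p 0.911 in edgeR). Plvap stood at 77.9 ± 33.8 CPM (SD, n = 5) in DMSO and 60.2 ± 21.1 (n = 5) in 27HC tumours of number 1, and at 52.4 ± 21.7 (n = 4) and 82.4 ± 33.0 (n = 5) in number 2, with a difference of 1.02 (-0.13 to 2.17). Over all members 28 differences were above 0 and 13 below, with a median of 0.35 against -0.02 over all genes.

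Without the 5 low-GC libraries the same test again called 0 members, with 8 of 41 (19.5%) and 4.5% of all genes at an unadjusted p under 0.05. Eng, Plvap, Egfl7, Sox18, Vegfb and Vwf were on the higher side (differences 0.62 to 1.03) and Sele and Vcam1 on the lower side (-1.80 and -0.85), and all had an adjusted p of 0.869. With library GC as a covariate the difference for Eng was 0.44 (unadjusted p 0.0492, adjusted p 0.99995 in edgeR) and that for Plvap 0.48. Those of Egfl7, Sox18, Vegfb and Vwf were 0.53, 0.40, 0.28 and 0.44 there. Sele stood at -1.14 and Vcam1 at -0.31, and these 6 had an unadjusted p of 0.115 to 0.371 in edgeR's test. The members' differences followed the GC content of their transcripts, with a Spearman coefficient of 0.81 across the 41 members and 0.66 across 15406 genes, where genes are not independent replicates. In the 14 tumours it was 0.70 and 0.54, and with library GC as a covariate 0.49 and 0.18. Of the 11 hypoxia response genes 11 had differences above 0 with all tumours (median 0.52) and 8 in the 14 (median 0.39), none called. The part of library composition in these values was not tested beyond these fits.

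For 8 members the low-GC libraries did not overlap the rest, while the treatment groups overlapped for all 42. In the 5 low-GC libraries 6 of 41 members (14.6%; 12.1% of all genes) lay above all other 14 tumours, and 2 (4.88%; 11.8% of all genes) lay below all of them. The 6 were Ptprb, Fli1, Nrp1, Tek, Angpt1 and Vcam1, and the 2 were Eng and Tie1. The shares were near those of all genes for the higher side and under them for the lower side. The libraries were themselves picked for a low count-weighted GC content, so GC-poor members high and GC-rich members low there are no separate result. The sister receptors differ in this way, with Tek at 47.1% GC and Tie1 at 57.6%. Tek was at 4.71 CPM in 27HC 1_3, 3.85 in 27HC 2_3, 3.46 in 27HC 1_5, 4.32 in DMSO 1_5 and 4.28 in DMSO 2_3, against 1.12 to 2.86 (median 2.07) in the other 14. Tie1 was at 8.99, 8.82, 11.2, 8.13 and 9.26 CPM in the same order, against 11.9 to 28.4 (median 16.4). The 2 groups of libraries did not overlap for either gene.

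Fli1, Vcam1, Angpt1 and Nrp1 were among the 6 members above all other 14 tumours (14.6%, against 12.1% of all genes). The selection of these libraries by GC content applies to them too. Fli1, which drives endothelial and blood cell genes, was at 21.6, 19.1, 14.3, 18.3 and 18.5 CPM in the order of libraries used for Tek, against 5.32 to 11.8 (median 7.84) elsewhere. Vcam1, the receptor for leucocyte integrins, was at 136, 166, 103, 123 and 108 CPM against 47.0 to 93.8 (median 59.1). Angpt1, the ligand that activates TIE2 and is made mainly by cells around the vessel, was at 9.56, 5.53, 5.71, 7.66 and 5.53 CPM against 0.578 to 3.74 (median 2.26). Nrp1, a coreceptor of VEGF and semaphorins, was at 86.0, 68.1, 48.8, 63.8 and 55.5 CPM against 17.1 to 38.0 (median 29.0). All 5 low-GC libraries were high for these genes whether the tumour was in the DMSO or the 27HC group.

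Several members with GC-rich transcripts were low there, in libraries that were themselves picked for a low count-weighted GC content. Flt4 (56.5% GC) and Icam1 (55.4%) were less so, with medians in the low-GC libraries of 0.889 and 0.896 times that in the others. Eng was at 52.2, 52.9, 56.1, 49.4 and 46.7 CPM in the same order, against 59.0 to 119 (median 84.4), and Vegfb at 17.1, 20.8, 35.1, 21.8 and 20.3 against 29.9 to 62.5 (median 50.8). Only 27HC 1_5 overlapped the other tumours for Vegfb. The median in the low-GC libraries over that in the others was 0.356 for Nos3, the endothelial nitric oxide synthase gene, 0.369 for Sox18, 0.399 for Plvap and 0.430 for Ramp2, with overlap for each. Cdh5 itself was at 53.2, 37.4, 62.8, 40.5 and 41.97 CPM against 45.2 to 86.0 (median 63.0), so that 3 of the 5 lay below all other tumours. For Pecam1 and Vegfa the ratio of medians was 1.05 each. The pericyte markers (9 of 9 found) summed to 141 to 300 CPM in the low-GC libraries and to 286 to 505 in the others, the epithelial tumour markers (5 of 5) to 44.7 to 100 and 77.7 to 142, the leucocyte markers (7 of 7) to 947 to 2377 and 638 to 1854, and the lymphatic markers to 16.5 to 79.0 and 6.49 to 18.3. The skeletal muscle markers (8 of 8) summed to 10.2 to 3700 CPM (median 685) in the low-GC libraries and to 4.26 to 1396 (median 37.4) in the others, and the smooth muscle markers (5 of 5) to 55.5 to 590 (median 164) and 42.1 to 395 (median 76.9). No marker of these lists was at 0 throughout, and their part in the members' values was not tested.

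**Figure D3:**
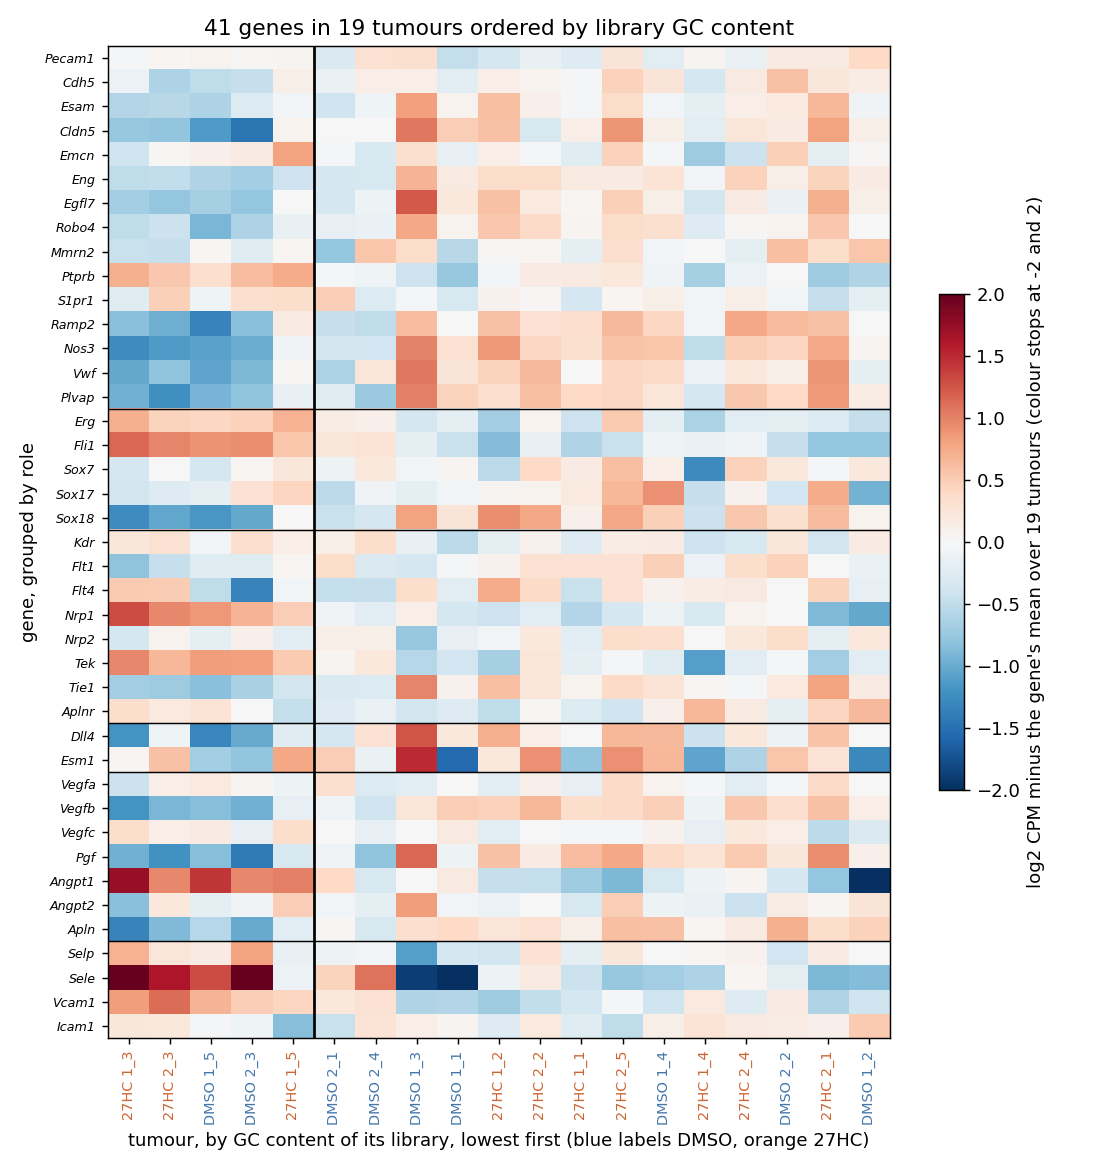
Log2 CPM minus the gene's mean for 41 genes (rows, grouped by role) in 19 tumours (columns, by library GC content, lowest first), with a line after the 5 low-GC libraries. Left of the line Fli1, Nrp1, Tek, Angpt1 and Vcam1 are high in all 5, and Nos3, Sox18, Plvap and Vegfb are low in 4 of 5, all but 27HC 1_5, in tumours of both treatments.

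To ask which members follow the amount of endothelium, each gene's slope on Cdh5 was fitted, as the log2 change per doubling of Cdh5 with treatment in the model. Cdh5 itself was left out, which leaves 40 members. Of these, 22 passed the threshold in edgeR's test (55%), where 45.7% of all 15628 genes did. On the higher side stood 17 members (42.5%; 22.7% of all genes) and on the lower side 5 (12.5%; 23% of all genes). The members' median slope was 0.45, against -0.06 over all genes. In the fit without the 5 low-GC libraries 0 members passed and 0% of all genes (466 genes at an unadjusted p under 0.05), and with library GC as a covariate also 0 members and 0%. With all 19 tumours kept, 0 members were called when Pecam1 or the mean of 10 endothelium markers replaced Cdh5. The members' median slope was then 0.23 with Pecam1 and 1.08 with the mean, against -0.03 over all genes each time. The 10 markers in that mean are themselves members. The calls were also lost with a filter at a mean of 1 log2 CPM, and with the title number as a replicate block. Of the low-GC libraries, 4 form 2 same-numbered pairs (DMSO 1_5 with 27HC 1_5, and DMSO 2_3 with 27HC 2_3). Leaving out 1 of the low-GC libraries at a time gave 0 calls without DMSO 1_5, without DMSO 2_3 or without 27HC 2_3, and 6 called members without 27HC 1_3 or 27HC 1_5 (2167 and 2836 genes). Leaving out any of the other 14 gave 21 to 23 called members.

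On Cdh5 with all 19 tumours 22.7% of all genes were called higher and 23% lower. The slopes by role below are from that fit, and they depend on the choice of Cdh5. With Pecam1 as the reference none was called, and 10 of the 22 called slopes had the opposite sign, those of Eng, Nos3, Fli1, Sox18, Flt1, Nrp1, Vegfb, Apln, Sele and Vcam1. Of the 14 junction and surface genes 10 were called higher: Nos3 (1.70, SE 0.38), Ramp2 (1.60, SE 0.28), Cldn5, the tight junction claudin (1.46), Plvap (1.45), Vwf, the clotting factor carrier (1.36), Egfl7 (1.17), the guidance receptor Robo4 (0.96), Esam (0.87), Eng (0.82) and Mmrn2 (0.76). The other 4 did not pass: Emcn 0.37, Pecam1 0.18, S1pr1 -0.25 and Ptprb -0.41. Sox18 was called higher (1.70) and Fli1 lower (-1.28, SE 0.35), while Sox7 (0.59), Sox17 (0.50) and Erg (-0.35) did not pass. Among the receptors Tie1 (1.08) and Flt1 (0.61) were called higher and Nrp1 lower (-1.01), and Kdr (0.01), Nrp2 (0.27), Flt4 (0.41), Aplnr (-0.34) and Tek (-0.77, adjusted p 0.0923) did not pass. Dll4 was called higher (1.22) and Esm1 (0.97) was not. The adhesion genes Sele (-2.36) and Vcam1 (-0.89) were called lower, and Selp (-0.49) and Icam1 (-0.09) did not pass.

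The secreted factors divided 3 ways on this slope, on which 45.7% of all genes were called. Pgf (1.53, SE 0.42), Apln (1.24, SE 0.29) and Vegfb (1.19, SE 0.33) were called higher, with adjusted p-values of 0.0134, 0.00974 and 0.0140 in edgeR's test. Angpt1 was called lower (-1.71, SE 0.53, adjusted p 0.0179). Vegfa (-0.01, 95% interval -0.40 to 0.37), Vegfc (-0.08, -0.49 to 0.32) and Angpt2 (0.31, -0.25 to 0.86) did not pass. In the 14 tumours without them the slopes were 0.34 for Pgf, 0.61 for Apln, 0.25 for Vegfb, -1.12 for Angpt1, 0.21 for Vegfa, -0.04 for Vegfc and 0.40 for Angpt2, none with an adjusted p below 0.05. Of the 7, Apln had an interval above 0 there (0.08 to 1.15, adjusted p 0.9997 in edgeR). With library GC as a covariate the slopes were 0.60 for Pgf, 0.48 for Apln, 0.33 for Vegfb and -0.06 for Angpt1. Those of Vegfa, Vegfc and Angpt2 were -0.14, 0.28 and 0.42, and each of the 7 intervals held 0.

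**Figure D4:**
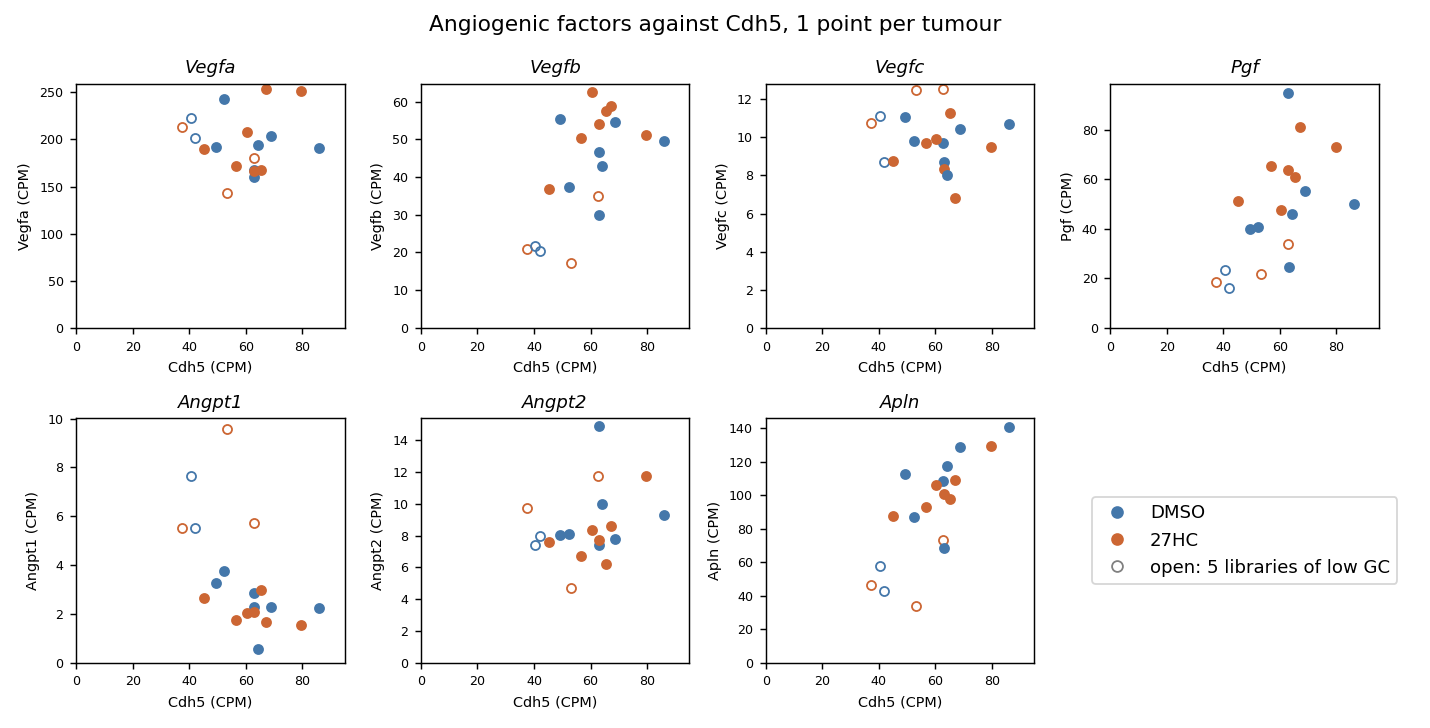
Level of the 7 secreted factors in CPM against Cdh5 in CPM, 1 point per tumour, DMSO in blue, 27HC in orange and open points for the 5 low-GC libraries. The open points are low for Vegfb, Pgf and Apln, with 27HC 1_5 inside the range of the others, and high for Angpt1, while Vegfa stays between 143 and 254 CPM over the whole range of Cdh5.

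The members' slopes tended to rise with transcript GC content, with overlap between the members called and those not called. The 17 members called higher had transcripts of 50.5 to 62.6% GC (median 57.4), the 5 called lower 39.3 to 50.01% (median 44.5) and the 18 not called 41.5 to 56.5% (median 50.5). The Spearman coefficient between slope and transcript GC was 0.78 across the 40 members and 0.69 across 15405 genes, a description across genes that share the same 19 libraries. Once those 5 were left out it was 0.05 across the members and 0.43 across all genes. In those 14 tumours 34 members had a slope above 0 and 6 below, with a median of 0.38 against -0.01 over all genes. At an unadjusted p under 0.05 stood 6 members on the higher side (15%; 1.31% of all genes), namely Mmrn2 (1.13), Sox7 (1.06), Emcn, the endomucin gene (0.89), Ramp2 (0.83), Kdr (0.72) and Apln (0.61), and 0 on the lower side (1.74% of all genes). All had an adjusted p of 0.9997. Tek stood at 0.61 and Tie1 at 0.31 there, both above 0, where with all 19 tumours Tek was at -0.77 and Tie1 at 1.08. With library GC as a covariate 33 members were above 0 and 7 below, and 9 of 40 (22.5%; 8.98% of all genes) had an unadjusted p under 0.05, of which 8 were higher and Aplnr lower (-0.76).

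**Figure D5:**
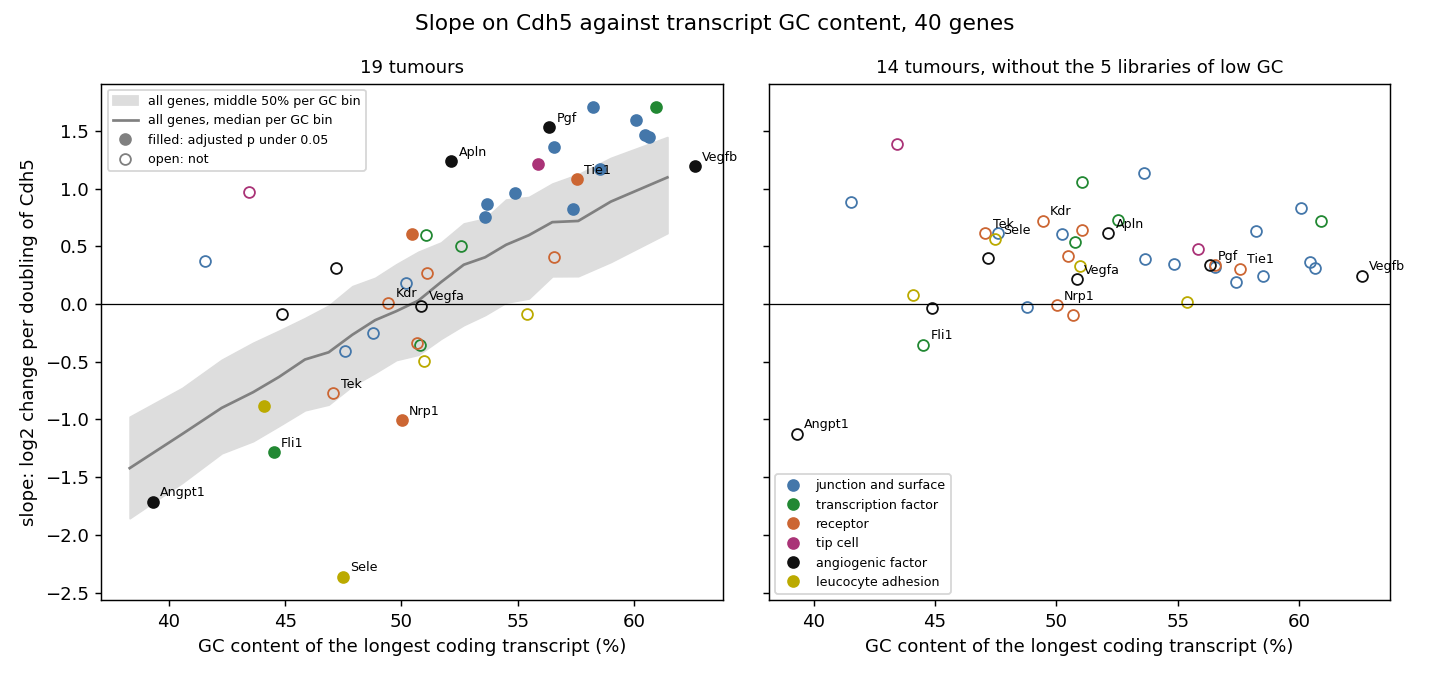
Slope on Cdh5 against transcript GC content for 40 genes, coloured by role and filled where the adjusted p is below 0.05, with all 19 tumours (left, grey band for all genes) and without the 5 low-GC libraries (right). On the left the slopes tend to rise with GC content, as those of all genes do, from Angpt1 (39.3% GC, slope -1.71) to Vegfb (62.6%, 1.19). Several members lie outside the band, such as Sele (-2.36) and Nrp1 (-1.01) below it and Apln (1.24) and Nos3 (1.70) above it. On the right 34 of 40 lie above 0 with no such trend.

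Against the 45.7% of all genes called on this slope (22.7% higher and 23% lower), the share called was lower in every other list except the BMP, other growth factor, lymphatic, pericyte, fibroblast and leucocyte lists, each of 12 genes or fewer. With all 19 tumours there were 4 called higher and 1 lower of 17 other endothelial genes, 4 and 0 of 13 Notch and sprouting genes, and 3 and 1 of 8 BMP genes. They gave 3 and 3 of 12 other growth factors, 3 and 0 of 7 inhibitors and 4 and 1 of 11 hypoxia genes. Among them Mcam, a melanoma and endothelial adhesion molecule, had a slope of 0.89 with all tumours and 0.83 without the 5 low-GC libraries, and Hgf, the hepatocyte growth factor, -2.60 and -0.11. Of the cell type lists, pericyte genes gave 5 called higher and 1 lower of 9, leucocyte genes 1 and 3 of 7, fibroblast genes 1 and 2 of 5, lymphatic genes 0 and 2 of 4, and smooth muscle genes 0 and 1 of 5. Fat cell and tumour epithelium genes gave 1 called higher each (of 4 and 5), and platelet (3), skeletal muscle (8) and red cell genes (5) gave 0. The 8 skeletal muscle genes all had slopes above 0, with a median of 1.26, and of 3.53 among the 14 tumours, and their part in the members' slopes was not tested. None of these lists gave a call in edgeR's test among those 14.

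At an equal Cdh5 level 27HC and DMSO tumours again showed no called member, with 0 of 40 and 0% of all genes in edgeR's test and 0 genes in limma-voom. At an unadjusted p under 0.05 stood 475 genes and 1 member, Flt4 (log2 fold change 0.56, SE 0.18, adjusted p 0.99997). Of the factors, Vegfa stood at -0.02, Vegfc at 0.03, Vegfb at 0.12, Pgf at 0.23, Angpt1 at 0.18, Angpt2 at -0.11 and Apln at -0.14, each with an interval that holds 0. The members' median was 0.04 against 0.02 over all genes, with 27 above 0 and 13 below, and in the 14 tumours 0.02, with 21 above 0 and 19 below.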

How the data were processed

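The deposited table holds expected counts per gene for 19 tumours; kallisto 0.44.0, limma, edgeR and the build GRCm38 appear, without roles, in the submitters' processing notes. The deposited expected counts, which need not be whole, were rounded. Libraries were made with a stranded mRNA kit and read from both ends, per the labels' protocols. How transcripts were summed to genes is not given in the sources used here. Columns were matched to samples by title. Genes were tested with edgeR 4.0.16 (R 4.3.3), quasi-likelihood, TMM, filterByExpr (15629 genes kept), Benjamini-Hochberg adjustment over all genes and a threshold of 0.05. Models held treatment; treatment and first title number; their interaction; and treatment with centred log2 CPM of Cdh5 (prior count 2). CPM use TMM library sizes. Library GC is the count-weighted GC of each gene's longest coding transcript (GENCODE M21), known for 26290 genes. Every one of the 42 members is named; of other lists, at most the 3 genes with the smallest p (172 of 173 list genes were found). Members and lists were chosen with earlier results of these data known. The fits were tested on simulated data. Alternatives were DESeq2 1.42.0, limma-voom (limma 3.58.1), RLE size factors, other filters, other references than Cdh5, subsets, a replicate block and leaving out each tumour; fits without the 5 low-GC libraries, with library GC as covariate or with a GC correction per library (loess, span 0.3) were added after seeing the data. Totals of 28139419 to 41179056 expected counts per tumour set the depth. Same-numbered tumours deviated together in 5 of 9 pairs and not in the other 4, so the main fits carry no replicate block.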

Additional observations from a re-analysis of the deposited data

Results flagged for a closer look

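An outlier test within each treatment group took the gap to the nearest tumour divided by the group's range. Chance flags about 1 in 20 if values are normally distributed and tests independent. CPM of genes in the same tumours need not meet either condition. In all, 10 of 84 tests (42 genes in 2 groups) found 1 tumour far from the rest, each on the high side. Of these, 6 fell on DMSO 1_3, which was high for Esam (17.4 CPM, next 11.2, gap share 0.559), Egfl7 (39.5, next 19.5, 0.677), Tie1 (28.4, next 17.5, 0.536), Esm1 (3.11, next 1.76, 0.494), Pgf (94.7, next 55.3, 0.5) and Angpt2 (14.9, gap share 0.653). Its platelet markers summed to 36.4 CPM and its red cell markers to 2151 CPM, the highest of the 19, and their part was not tested. DMSO 1_5 was high for Prox1 (1.09 CPM, next 0.184, gap share 0.831), 27HC 1_3 for Angpt1 (9.56, next 5.71, 0.479) and Selp (8.87, next 6.69, 0.473), and DMSO 2_3 for Sele (3.36, next 1.35, 0.609). These 3 are low-GC libraries.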

How the results depend on the processing

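For 27HC against DMSO, at equal Cdh5 too, for the first title number and for its interaction with treatment, members called stayed at 0 under every alternative, and genes called at 0 except with DESeq2 (2 for 27HC, 41 for the first number). Leaving out 1 tumour at a time gave 0 to 0. The slope on Cdh5 called 7135 genes and 22 members, and 0 of both with a filter at 1 log2 CPM, Pecam1 or the mean of 10 endothelium markers as reference, without the 2 tumours farthest from the median of Cdh5 (27HC 2_3 and DMSO 1_5), in tumours with first number 1, in DMSO or 27HC tumours alone, without the 5 low-GC libraries, with a GC correction per library, with library GC as covariate and with the replicate block. Leaving out 1 tumour at a time gave 0 to 8043 genes and 0 to 23 members. Other settings stayed within 1.5 times: 22 members with RLE, 23 unfiltered, 21 with limma-voom, 26 with Tie1 as reference, 21 in number 2 and 22 at a prior count of 0.5. In the main fit 45.7% of all genes and 55% of members were called. Shares of all genes under the other settings are not given here. The cause of the changes between settings was not tested beyond these fits. The median slope of all genes was -0.06, and -0.23 unfiltered. Called slopes changed sign with Pecam1 as reference for Eng (-0.011), Nos3 (-0.079), Fli1 (0.24), Sox18 (-0.082), Flt1 (-0.47), Nrp1 (0.13), Vegfb (-0.45), Apln (-0.011), Sele (0.58) and Vcam1 (0.59); with the GC correction for Nrp1 (0.30) and Angpt1 (0.10); with library GC as covariate for Nrp1 (0.34) and Sele (0.20); and without the 5 low-GC libraries for Sele (0.56) and Vcam1 (0.077). Of the 41 members, 20 changed sign for 27HC on leaving out some tumour; none was called. The replicate block (full title number) gave 0 called members for 27HC; of 9 pairs 5 had a correlation over 0.1 (-0.43 to 0.78), and 1 DMSO tumour correlated best with its own number, so the numbers were not taken to pair the tumours.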
